A study of Mus musculus with 4 samples.

Results

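DNA replication genes are described here in mouse LSK cells with and without Setd2. The 43 genes were taken by symbol from a named list of the replication machinery. The rule uses no measured value, but the list was drawn up with earlier results of these data known. All 43 were found among the 46517 genes of the deposited expression table. LSK cells (no lineage markers, with Sca-1 and c-Kit on the surface) are the sorted fraction of blood-forming cells that holds haematopoietic stem cells and early multipotent progenitors. They came from C57BL/6 mice aged 8 to 10 weeks and were profiled by mRNA sequencing in 2 groups, Setd2D/D, in which Setd2 is knocked out (2 libraries), and Setd2f/f, which carries the floxed but functional gene (2 libraries). Setd2 encodes the enzyme that places the histone mark H3K36me3 over transcribed genes. The sources used here do not give the Cre driver, the age at deletion, the deleted exons or how many mice were pooled. They also do not say that libraries of a genotype came from separate mice, so a p-value reflects library-to-library spread that may be technical.

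A cell copies its genome once per cycle. In G1 the origin recognition complex, Cdc6 and Cdt1 load the ring-shaped MCM helicase onto origins, and geminin blocks Cdt1 after S phase has begun. Cdc45 and the GINS complex then switch the helicase on, polymerase alpha with its primase starts each strand, polymerases delta and epsilon extend it, the clamp loader RFC places the sliding clamp PCNA behind them, RPA covers the unwound strand, and Fen1 and Lig1 join the fragments of the lagging strand. Many of these genes are targets of E2F factors at the entry into S phase. Most adult haematopoietic stem cells rest outside the cycle while the progenitors sorted with them divide often, and replication transcripts are a mark of the dividing cells. In bulk RNA, fewer cells of a type and less RNA per cell cannot be told apart.

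Promoters are shown because E2F factors are the known regulators that these genes have in common. RefSeq windows on GRCm38.p6, running from 250 bases before to 50 bases after an annotated start, were matched by symbol for 35 of the 43 genes, and Gins1, Gins2, Gins4, Gmnn, Mcm4, Pole, Prim2 and Rfc2 were not matched. The search used the E2F letters TTTGGCGC, TTTCCCGC, TTTGCCGC and TTTCGCGC and the letters CCAAT, each on both strands, where E2F letters on opposite strands can share bases. At least 1 E2F match was found in 14 of the 35 genes (40.0%) and in 704 of 27025 genes with a window (2.6%). CCAAT was found in 65.7% of the 35 genes and in 41.1% of all genes with a window, and both kinds of letters in 25.7% and 1.12%. A TATAAA run was found in 8.57% of the 35 genes and in 15.7% of all. The 14 genes were Mcm3, Mcm5, Mcm6, Mcm7, Orc1, Cdc6, Cdt1, Gins3, Pola1, Pold1, Pole2, Rfc3, Lig1 and Uhrf1. A match is a run of letters and not a measured binding site. The starts are those of RefSeq and can differ from GENCODE gene models. On those models the stretch printed for Mcm7 lies wholly inside the gene. The stretches of Orc1, Gins3, Pcna, Rfc3 and Rfc4 lie inside in part. Bases just after the start were found in a GENCODE transcript of the gene for 37 of 42 windows. Below are the 170 bases before the start, read 5′ to 3′ on the strand of the gene, for the hexamer genes with a window, for Orc1, and for the genes of the clamp and GINS whose values are given in full further on, with E2F and CCAAT letters in capitals:
Mcm2, chr6:88898781-88898950 (minus strand): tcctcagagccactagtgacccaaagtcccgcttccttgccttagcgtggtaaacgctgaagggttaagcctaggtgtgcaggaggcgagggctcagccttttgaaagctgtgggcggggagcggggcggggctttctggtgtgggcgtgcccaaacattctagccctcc
Mcm3, chr1:20820313-20820482 (minus strand): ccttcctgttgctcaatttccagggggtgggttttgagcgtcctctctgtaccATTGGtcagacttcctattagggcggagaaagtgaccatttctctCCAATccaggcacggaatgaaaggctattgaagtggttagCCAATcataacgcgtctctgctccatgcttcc
Mcm5, chr8:75109339-75109508 (plus strand): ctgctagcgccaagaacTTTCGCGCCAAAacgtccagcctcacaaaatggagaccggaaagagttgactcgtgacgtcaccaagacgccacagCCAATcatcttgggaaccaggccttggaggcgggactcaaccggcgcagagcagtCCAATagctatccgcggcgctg
Mcm6, chr1:128359706-128359875 (minus strand): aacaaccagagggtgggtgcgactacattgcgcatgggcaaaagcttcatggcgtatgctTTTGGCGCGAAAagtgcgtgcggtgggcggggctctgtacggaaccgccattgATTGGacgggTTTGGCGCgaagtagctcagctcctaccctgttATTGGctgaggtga
Mcm7, chr5:138171884-138172053 (minus strand): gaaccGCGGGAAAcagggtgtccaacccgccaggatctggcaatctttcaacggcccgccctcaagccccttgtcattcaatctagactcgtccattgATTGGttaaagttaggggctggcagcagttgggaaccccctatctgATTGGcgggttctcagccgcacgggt
Orc1, chr4:108579284-108579453 (plus strand): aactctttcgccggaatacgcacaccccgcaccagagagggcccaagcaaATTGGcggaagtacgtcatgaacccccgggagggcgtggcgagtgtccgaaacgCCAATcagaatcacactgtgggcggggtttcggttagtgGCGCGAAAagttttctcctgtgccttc
Gins3, chr8:95633389-95633558 (plus strand): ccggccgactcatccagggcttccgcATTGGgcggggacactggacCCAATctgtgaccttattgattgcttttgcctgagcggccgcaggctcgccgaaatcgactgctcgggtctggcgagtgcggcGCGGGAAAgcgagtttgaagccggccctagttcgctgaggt
Pcna, chr2:132253181-132253350 (minus strand): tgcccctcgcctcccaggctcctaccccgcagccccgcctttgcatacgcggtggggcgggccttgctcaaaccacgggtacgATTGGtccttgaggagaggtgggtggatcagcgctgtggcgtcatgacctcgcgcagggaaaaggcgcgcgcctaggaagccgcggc
Rfc3, chr5:151651209-151651378 (minus strand): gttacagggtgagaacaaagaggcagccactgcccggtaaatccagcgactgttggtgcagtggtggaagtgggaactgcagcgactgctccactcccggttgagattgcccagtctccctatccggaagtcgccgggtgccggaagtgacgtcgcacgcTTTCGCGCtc
Rfc4, chr16:23127731-23127900 (minus strand): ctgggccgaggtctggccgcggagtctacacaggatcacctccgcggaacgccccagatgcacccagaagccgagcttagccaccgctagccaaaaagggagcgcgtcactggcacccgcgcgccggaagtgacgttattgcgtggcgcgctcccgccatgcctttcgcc

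In these stretches Mcm6 carries E2F letters at separate places and CCAAT letters beside them. In Mcm5, and in Mcm6 at the place farther from the start, the E2F letters of both strands run into each other. The E2F match of Mcm3 lies in its window outside the stretch shown. Mcm2 and Rfc4 show neither kind of letters here. Pcna shows no E2F letters and, like Mcm6 and Mcm7, carries CCAAT letters only on the strand opposite to the gene, as ATTGG.

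All 4 libraries carried the replication genes at high levels. Levels are TPM (a length-normalised share of the library's transcripts) with every library scaled to the same total. The median over the 43 genes of the mean TPM was 91.3, against 19.3 for all 14755 genes tested. Of the 43 genes, 20 averaged at least 100 TPM and 2, Gins3 and Orc1, averaged under 20 TPM. The highest was Pcna, the sliding clamp, at a mean of 561 TPM over the 4 libraries, and the lowest was Orc1, a subunit of the origin recognition complex, at 9.97 TPM. The highest library was less than 1.5 times the lowest for 37 of the 43 genes, and reached that ratio for Mcm2, Orc2, Gins3, Rfc5, Pole and Pold2.

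**Figure D1:**
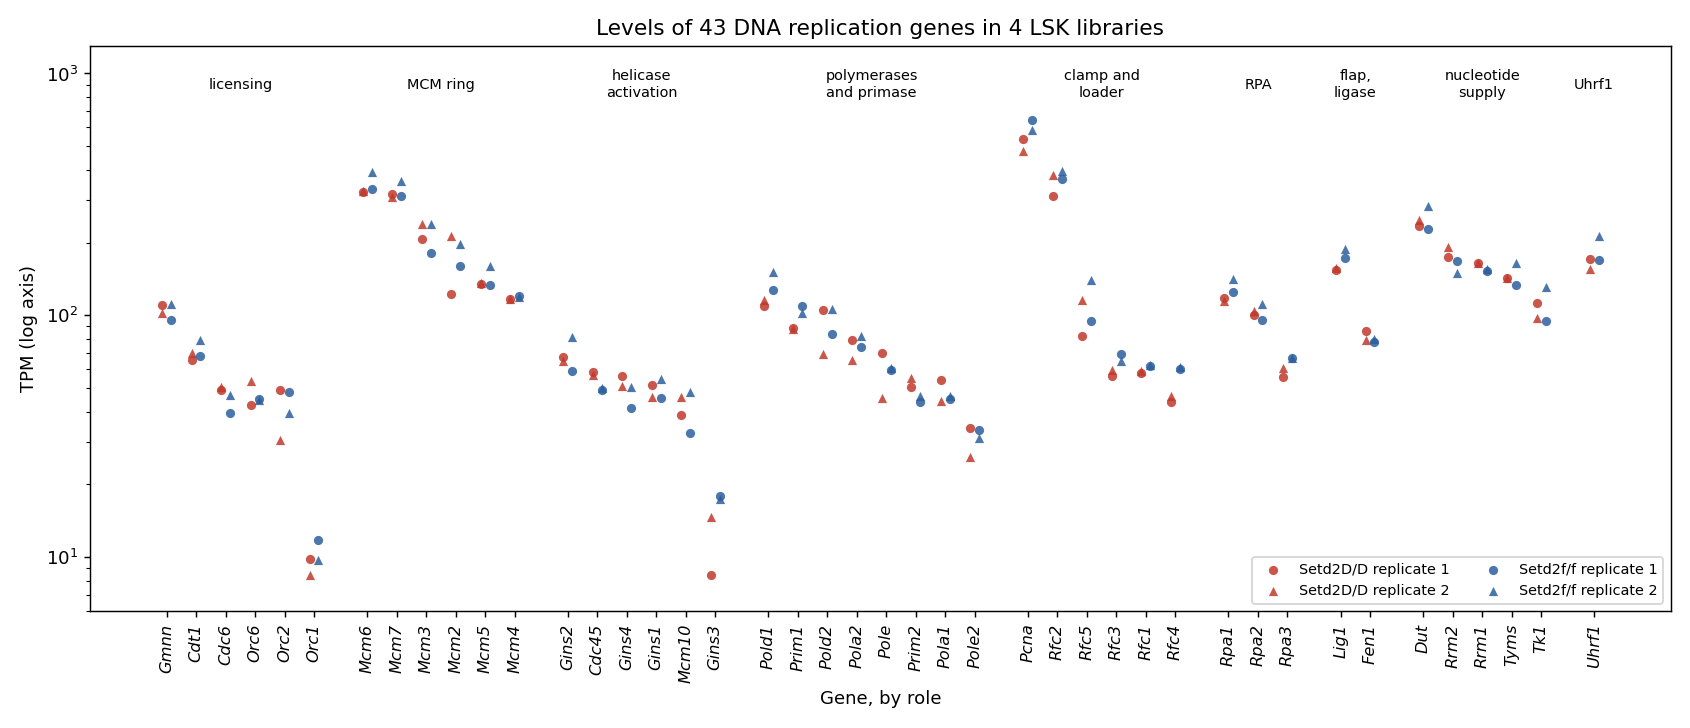
Level of each of the 43 DNA replication genes in the 4 LSK libraries, as TPM on a log axis, with genes on the horizontal axis ordered by role, Setd2D/D libraries in red and Setd2f/f libraries in blue. Points of a gene lie close together compared with the distance between genes, which runs up to Pcna with a mean of 561 TPM and down to Orc1 with a mean of 9.97 TPM.

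The knockout, the sort and the other cells in it were checked on the same table. Setd2 (chromosome 9, 110532597 to 110618633 on GRCm38) was at 43.4 and 49.5 TPM in Setd2D/D, against 78.9 and 68.0 TPM in Setd2f/f (limma adjusted p = 0.329, and -0.73 on the log2 scale with FDR 5.84e-06 in the authors' deposited table), a whole-gene value that does not check the deleted part itself. Both sort genes were present in every library and separated by genotype. Ly6a, for Sca-1, was at 46.5 and 80.6 TPM in Setd2D/D, against 127.5 and 123.8 TPM in Setd2f/f, and Kit was at 301 and 285 TPM in Setd2D/D, against 224 and 248.7 TPM in Setd2f/f. The summed level of 12 erythroid genes was 569 and 512 TPM in Setd2D/D, against 134 and 167 TPM in Setd2f/f, with 10 of the 12 higher without overlap, against 16.8% of all genes tested. The sum of 10 granulocyte and monocyte genes was 2891 and 3928 TPM in Setd2D/D, against 1929 and 2418 TPM in Setd2f/f. Mpo alone was at 1427 and 1878 TPM in Setd2D/D, against 815 and 943 TPM in Setd2f/f. These 10 genes were not uniform, with 6 higher without overlap and 2, Ngp and Ltf, lower without overlap, against 16.8% and 27.6% of all genes tested. The sum of 7 B cell genes was 177 and 247 TPM in Setd2D/D, against 510 and 281 TPM in Setd2f/f. Of these, 5 were lower without overlap, against 27.6% of all genes tested, and 2, Igll1 and Pax5, overlapped. Pax5 was the 1 B cell gene above 0 on limma, at 0.36, and was at -0.62 in the authors' deposited table. The sum of 6 T and NK cell genes was 79.8 and 121.6 TPM in Setd2D/D, against 131.3 and 131.6 TPM in Setd2f/f, most of it from Nkg7 at 78.7 to 125.8 TPM. Cd4 was at 0 and 2.29 TPM in Setd2D/D, against 14.6 and 4.15 TPM in Setd2f/f, while Cd3e, Cd3g and Cd8a were each listed at 0 in at least 1 library and reached at most 0.57, 2.35 and 0.47 TPM. Setd2D/D replicate 1 stood apart over all genes tested, with r of 0.912 to Setd2D/D replicate 2 and of 0.91 and 0.913 to the Setd2f/f libraries, which correlated with each other at 0.959. Over the replication genes its r to the other libraries was between 0.97 and 0.975, against 0.976 to 0.986 for pairs without it. Setd2D/D replicate 1 had 17185 genes above 0 TPM, against 19448 to 20192 in the other libraries. At 1 TPM or above it had 14360 genes, against 14421 to 14610. The part of these cell type differences in the replication values was not tested.

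None of the 43 genes passed the test between genotypes. The test was limma on log2(TPM + 1) over all 14755 genes that reached 1 TPM in 2 or more libraries, 2-sided, with Benjamini-Hochberg adjustment and a threshold of 0.05, and positive differences mean higher in Setd2D/D. It called 0 of the 43 genes, against 0.0678% of all genes tested (10 genes), and the lowest adjusted p among the 43 was 0.396, for Rfc4. The authors' deposited table of the comparison also places 0 of the 43 past an FDR of 0.05, against 3.15% of its genes, and its lowest FDR among them is 0.28, for Gins3. An unadjusted p under 0.05 was reached by 2 genes (4.65%), Rfc4 and Pcna, both lower in Setd2D/D, against 11.2% of all genes tested, or 6.99% in the lower direction. That count of 2 was 1 after each rescaling of the libraries, 0 with no abundance trend and between 0 and 3 with 1 library left out (3 when it was Setd2D/D replicate 2, 0 when it was Setd2f/f replicate 2, and 1 for either of the others). In the authors' deposited table, 5 genes (11.6%) have an unadjusted p under 0.05, against 11.2% of its genes.

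The intervals describe these libraries under the abundance trend and set no bound on a difference between mice, since separate mice are not stated. With no trend the SE rose from 0.106 to 0.165 for Pcna and fell from 0.242 to 0.185 for Orc1. For 42 of the 43 genes the 95% interval of the difference stayed within 2-fold in either direction, and the exception was Gins3. The share was 55.1% of all genes tested, which were not matched for level. The median of the mean TPM was 91.3 for the 43 genes and 19.3 for all genes tested. The part of level in this contrast was not tested. A fall by 1.5-fold lay outside the interval for 31 genes and a rise by 1.5-fold for 39 genes. The median difference over the 43 was -0.105 on the log2 scale, with 12 genes above 0 and 31 below (27 or 28 below after rescaling of the libraries), against a median of -0.06 over all genes tested, of which 57.9% were below 0. Both Setd2D/D libraries lay above both Setd2f/f libraries for 6 genes (14.0%), Cdc45, Cdc6, Gins4, Prim2, Rrm1 and Rrm2, against 16.8% of all genes tested. They lay below both for 12 genes (27.9%), Mcm4, Mcm6, Gins3, Pcna, Rfc1, Rfc3, Rfc4, Prim1, Pold1, Lig1, Rpa1 and Rpa3, against 27.6% of all genes tested. Both shares are near those of all genes. With 2 libraries against 2, an exact permutation test of a single gene cannot go below p = 0.33.

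**Figure D2:**
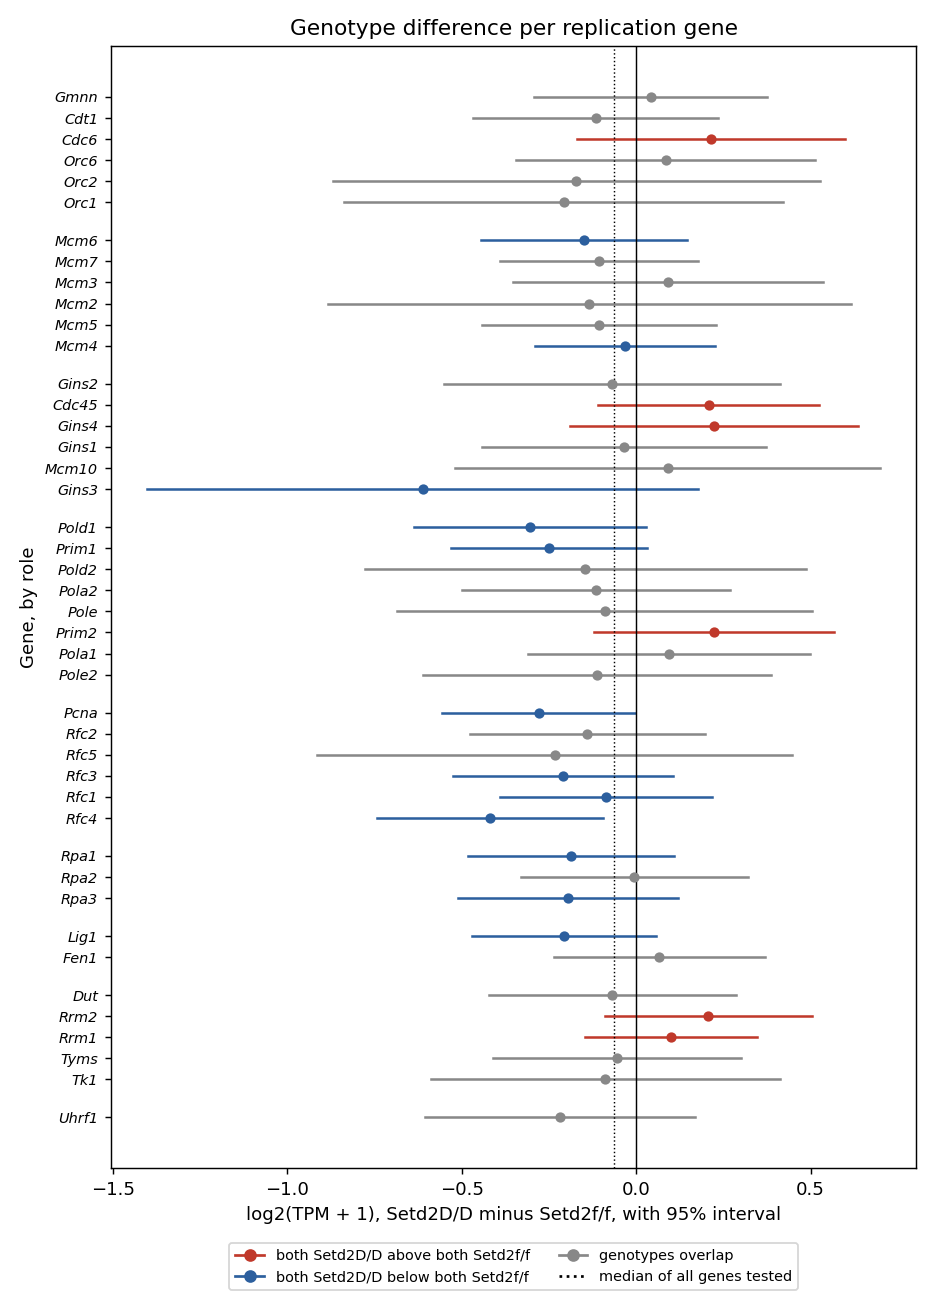
Difference in log2(TPM + 1), Setd2D/D minus Setd2f/f, on the horizontal axis for each of the 43 genes grouped by role, with the limma 95% interval as a line and colour giving whether the genotypes overlap. The interval of Rfc4 lies wholly below 0 and that of Pcna just so, with an upper end of -0.0028, that of Gins3 is the widest, and all others include 0.

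The sum of the 43 genes was 5022 and 5104 TPM in Setd2D/D, against 5150.4 and 5719 TPM in Setd2f/f, a mean of 5063 ± 57.7 and 5434 ± 402 (SD, n = 2 each) and a ratio of means of 0.932. The Setd2D/D libraries lay below both Setd2f/f libraries, and the gap to Setd2f/f replicate 1 was small. Setd2f/f replicate 2 stood high among the 4, since it held the highest value of 23 of the 43 genes and the lowest of 1. It exceeded Setd2f/f replicate 1 for 33 of the 43 genes by a median of 0.14 on the log2 scale, while the same median over all genes tested was -0.04. Without Setd2f/f replicate 2 the median difference of the 43 genes was 0.02, with 22 genes above 0 and 21 below, and the ratio of summed TPM was 0.983. With any of the other libraries left out the median stayed below 0.

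**Figure D3:**
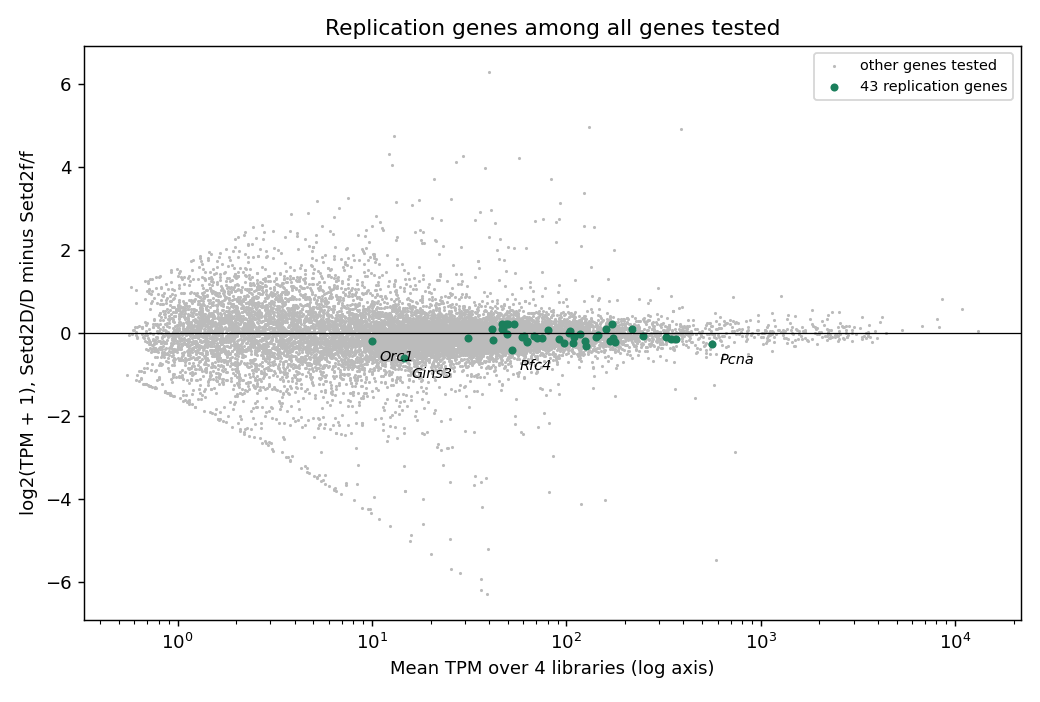
Difference in log2(TPM + 1), Setd2D/D minus Setd2f/f, on the vertical axis against the mean TPM over the 4 libraries on a log axis, with the 43 replication genes over the 14755 genes tested. The replication genes lie to the right, at a median of 91.3 TPM, and between -0.61 for Gins3 and 0.22 for Gins4 and Prim2.

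Of the 6 origin recognition and licensing genes, 3 were above 0 and 3 below, with 0 past the threshold and a median of -0.04, which turned to between 0.01 and 0.02 after rescaling of the libraries and was also above 0 when Setd2D/D replicate 2 (0.00835) or Setd2f/f replicate 2 (0.0353) was left out. Their summed level was 327 and 316 TPM in Setd2D/D, against 308 and 332 TPM in Setd2f/f, so the genotypes overlapped. Cdc6 (chromosome 11, 98907801 to 98923940), the ATPase that loads MCM with the origin recognition complex, was at 49.4 and 50.8 TPM in Setd2D/D, against 39.5 and 46.8 TPM in Setd2f/f. Both Setd2D/D libraries were above both Setd2f/f libraries, and the difference was 0.21 (SE 0.15, 95% interval -0.17 to 0.60, limma adjusted p = 0.619).

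Cdt1, the second loading factor, was at 65.3 and 70.0 TPM in Setd2D/D, against 68.0 and 79.1 TPM in Setd2f/f, and the libraries overlapped (difference -0.12, interval -0.47 to 0.24, adjusted p = 0.784). Gmnn, which encodes geminin, was at 110.6 and 102.2 TPM in Setd2D/D, against 95.7 and 111.3 TPM in Setd2f/f. Orc1, the subunit that comes and goes with the cycle, was at 9.87 and 8.48 TPM in Setd2D/D, against 11.8 and 9.77 TPM in Setd2f/f. The Orc1 libraries overlapped, with a difference of -0.21 and an interval of -0.84 to 0.42 (adjusted p = 0.785). Orc6 was at 42.5 and 53.7 TPM in Setd2D/D, against 45.2 and 44.9 TPM in Setd2f/f, where the Setd2D/D libraries lay on either side.

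The genes of the MCM hexamer, the helicase core, summed to 1221 and 1340 TPM in Setd2D/D, against 1240.1 and 1467 TPM in Setd2f/f. The means were 1280 ± 84.1 and 1354 ± 160 (SD, n = 2 each), a ratio of 0.946, and the genotypes overlapped. Of the 6 subunits 1 was above 0 and 5 below (2 and 4 after rescaling), with a median of -0.11 and 0 past the threshold. Leaving out Setd2f/f replicate 2 turned the ratio to 1.03 and the median to 0.01, with 3 subunits above 0 and 3 below, and leaving out Setd2f/f replicate 1 gave a median of -0.22 with all 6 below. Mcm6 (chromosome 1, 128331590 to 128359664), whose promoter carries E2F letters at separate places, was at 324 and 327 TPM in Setd2D/D, against 333 and 391 TPM in Setd2f/f. The Setd2D/D libraries were close together and just below Setd2f/f replicate 1, with a difference of -0.15 (SE 0.11, interval -0.44 to 0.15, adjusted p = 0.653). Mcm7 (chromosome 5, 138164583 to 138172422) was at 316 and 307 TPM in Setd2D/D, against 313 and 360 TPM in Setd2f/f, which overlap (difference -0.11, interval -0.39 to 0.18, adjusted p = 0.752). Mcm5 was at 134.9 and 136.6 TPM in Setd2D/D, against 133.3 and 160.3 TPM in Setd2f/f, and its difference of -0.11 (adjusted p = 0.795) was 0.03 without Setd2f/f replicate 2.

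The other subunits differed most in their spread. Mcm2 was at 123 and 213 TPM in Setd2D/D, against 160 and 198 TPM in Setd2f/f, so that the Setd2D/D libraries enclosed both Setd2f/f libraries. Mcm3 was at 206 and 239 TPM in Setd2D/D, against 181 and 239 TPM in Setd2f/f. Mcm4 was at 116.6 and 116.7 TPM in Setd2D/D, against 119.8 and 118.7 TPM in Setd2f/f, the tightest of the subunits, with a difference of -0.03 (interval -0.29 to 0.23, adjusted p = 0.933) that was between 0.02 and 0.03 after each rescaling of the libraries. In TPM, a per-length level, the order was Mcm6, Mcm7, Mcm3, Mcm2, Mcm5 and Mcm4 in 3 libraries, and Mcm5 exceeded Mcm2 in Setd2D/D replicate 1. The ranges of Mcm6 and Mcm7 over the libraries overlapped, as did those of Mcm3 and Mcm2 and those of Mcm2 and Mcm5, while Mcm4 was below every other subunit in every library. The highest subunit was 2.78 and 2.81 times the lowest in Setd2D/D, against 2.78 and 3.3 times in Setd2f/f, although the ring holds equal copies of each.

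Genes that switch the helicase on pointed in both directions, with 3 of 6 above 0 and 3 below (4 and 2 after rescaling), a median of 0.03 and 0 past the threshold. The median was 0.19, with 5 above 0 and 1 below, without Setd2f/f replicate 2, and -0.17, with 2 above and 4 below, without Setd2f/f replicate 1. Gins3 (chromosome 8, 95633453 to 95645060), a GINS subunit, had the largest difference of all 43 genes and was at 8.47 and 14.7 TPM in Setd2D/D, against 17.9 and 17.3 TPM in Setd2f/f. Setd2D/D was lower in both libraries, but they lay farther from each other than the higher of them lay from Setd2f/f. The difference was -0.61 (SE 0.30, interval -1.40 to 0.18, adjusted p = 0.517), and leaving out Setd2D/D replicate 1 gave -0.25, against -0.97 when Setd2D/D replicate 2 was left out. The authors' deposited table lists Gins3 at -0.55 on the log2 scale, with FDR 0.28.

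Its partner Gins4 was at 56.4 and 51.0 TPM in Setd2D/D, against 41.5 and 50.5 TPM in Setd2f/f, where Setd2D/D replicate 2 and Setd2f/f replicate 2 nearly met (difference 0.22, interval -0.19 to 0.64, adjusted p = 0.628). Cdc45 (chromosome 16, 18780447 to 18811987), which joins MCM and GINS in the active helicase, was at 58.3 and 56.5 TPM in Setd2D/D, against 49.0 and 50.2 TPM in Setd2f/f. Both Setd2D/D libraries of Cdc45 were higher and each genotype was tight, and the difference was 0.21 (SE 0.12, interval -0.11 to 0.52, adjusted p = 0.564). Gins1, Gins2 and Mcm10 overlapped between genotypes. GINS is made of equal copies of its subunits, yet Gins3 was the lowest of them in every library.

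Of the 8 polymerase and primase genes, 2 were above 0 and 6 below, with a median of -0.11 and 0 past the threshold. The direction turned without Setd2D/D replicate 2, to a median of 0.11 with 6 above 0 and 2 below. Leaving out Setd2D/D replicate 1 gave -0.26 with 1 above and 7 below, and rescaling gave between -0.062 and -0.0464. Prim1 and Prim2 encode the catalytic and the large subunit of primase and lay on opposite sides of 0. Prim1 (chromosome 10, 128015168 to 128030037) was at 89.1 and 88.3 TPM in Setd2D/D, against 109.0 and 102.1 TPM in Setd2f/f, with both Setd2D/D libraries lower (difference -0.25, SE 0.11, interval -0.53 to 0.03, adjusted p = 0.479). Prim2 (chromosome 1, 33453810 to 33669795) was at 50.5 and 55.2 TPM in Setd2D/D, against 43.9 and 46.4 TPM in Setd2f/f, with both Setd2D/D libraries higher (difference 0.22, SE 0.13, interval -0.12 to 0.57, adjusted p = 0.571).

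Pold1 (chromosome 7, 44532746 to 44548849), the catalytic subunit of polymerase delta, was at 109.2 and 115.3 TPM in Setd2D/D, against 127.7 and 151.1 TPM in Setd2f/f. The genotypes did not overlap, with a difference of -0.31 (SE 0.13, interval -0.64 to 0.03, adjusted p = 0.470). Its accessory subunit Pold2 was at 105.1 and 69.6 TPM in Setd2D/D, against 84.1 and 106.6 TPM in Setd2f/f, and Setd2D/D replicate 2 was the low library. Pole, the catalytic subunit of polymerase epsilon, was at 69.8 and 45.5 TPM in Setd2D/D, against 59.7 and 60.6 TPM in Setd2f/f, so the Setd2D/D libraries lay on either side. Pole2, Pola1 and Pola2 also overlapped between genotypes.

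The sliding clamp and clamp loader genes had lower mean values in Setd2D/D than in Setd2f/f, none of them past the threshold. All 6 were below 0 with a median of -0.22, and 4, Pcna, Rfc1, Rfc3 and Rfc4, were lower without overlap between genotypes, against 27.6% of all genes tested. Their summed level was 1087 and 1141 TPM in Setd2D/D, against 1297 and 1308 TPM in Setd2f/f, or 1114 ± 38.6 and 1302 ± 8.15 (SD, n = 2 each), a ratio of 0.855 with no overlap. The exact permutation test cannot go below p = 0.33 here either. The median lay between -0.17 and -0.163 after rescaling of the libraries, with all 6 genes still below 0. It was -0.124 without Setd2D/D replicate 1, with 4 genes below 0, and -0.172 without Setd2f/f replicate 2, with 5 below. Leaving out Setd2D/D replicate 2 gave -0.266 and leaving out Setd2f/f replicate 1 gave -0.2, with all 6 genes below 0. In the authors' deposited table the median of the 6 genes was -0.105, with 5 below 0 and 1, Rfc5, above at 0.19. There Rfc1 was at -0.01 and Rfc2 at -0.02.

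Rfc4 (chromosome 16, 23113943 to 23127737), a small subunit of the loader, was at 43.7 and 46.3 TPM in Setd2D/D, against 59.9 and 61.1 TPM in Setd2f/f. The libraries of a genotype were close and the genotypes were well apart, with means of 45.0 ± 1.85 and 60.5 ± 0.856 TPM (SD, n = 2 each) and a ratio of 0.744. Its difference of -0.42 (SE 0.12, interval -0.74 to -0.10) had an unadjusted p of 0.0211 (0.0516 with no trend) and a limma adjusted p of 0.396, and the authors' deposited table gives -0.36 with an FDR of 0.408. On gene models 12.7% of the exon bases of Rfc4 lie under Eif4a2 on the opposite strand, a gene at 531 to 694 TPM. Pcna (chromosome 2, 132249162 to 132253314), the ring that tethers polymerases to DNA, was at 534 and 479 TPM in Setd2D/D, against 644 and 586 TPM in Setd2f/f. Setd2D/D was lower in both libraries, with means of 506 ± 39.1 and 615 ± 40.9 TPM (SD, n = 2 each) and a ratio of 0.824. The difference of Pcna was -0.28 (SE 0.11, interval -0.56 to -0.0028, limma unadjusted p = 0.0485, adjusted p = 0.446), with an unadjusted p between 0.0823 and 0.0898 after rescaling, 0.0656 with no filter and 0.169 with no trend, and in the authors' deposited table it is -0.19 with an FDR of 0.680.

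Rfc3, another small subunit, was at 56.2 and 59.4 TPM in Setd2D/D, against 69.1 and 65.0 TPM in Setd2f/f, with both Setd2D/D libraries lower (difference -0.21, interval -0.53 to 0.11, adjusted p = 0.562). Rfc1, the large subunit, was at 58.0 and 58.9 TPM in Setd2D/D, against 61.6 and 62.6 TPM in Setd2f/f, a small gap with no overlap (difference -0.09). Rfc2 was at 313 and 382 TPM in Setd2D/D, against 368 and 394 TPM in Setd2f/f, well above the other loader genes and overlapping between genotypes. Rfc5 was at 82.2 and 116.2 TPM in Setd2D/D, against 94.6 and 139.9 TPM in Setd2f/f, so replicate 1 was the lower library in both genotypes. Its difference was -0.23 (interval -0.91 to 0.45, adjusted p = 0.774), but 0.01 without Setd2D/D replicate 1 and 0.05 without Setd2f/f replicate 2.

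**Figure D4:**
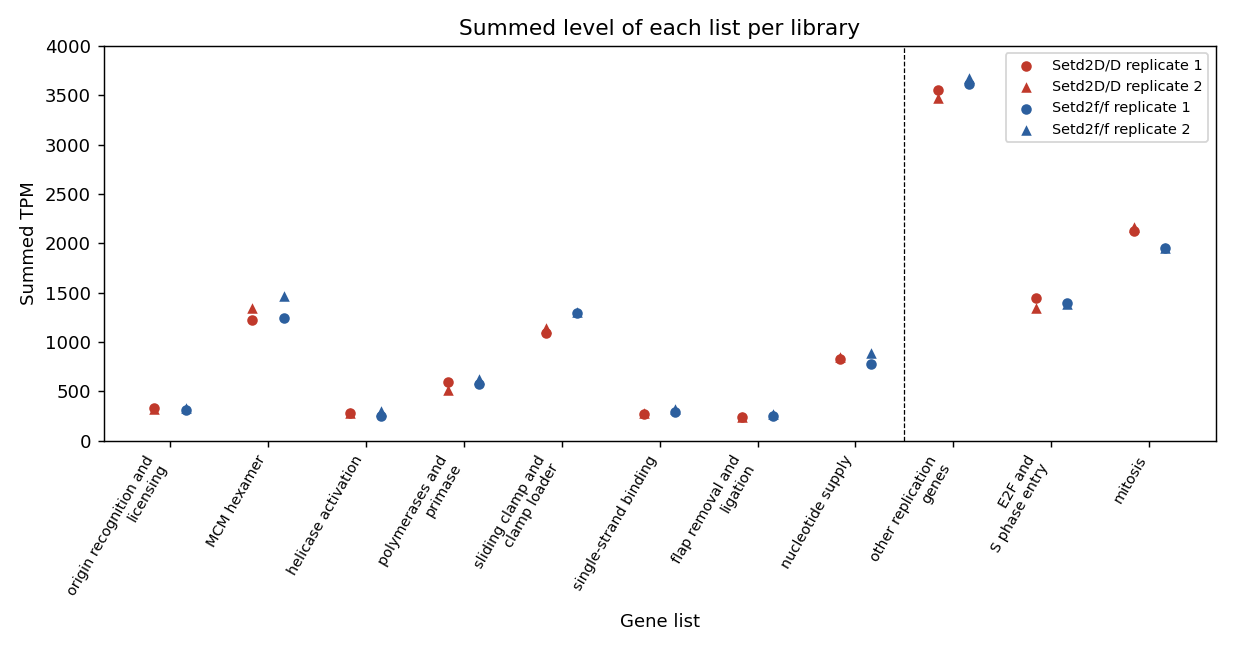
Summed TPM on the vertical axis of each role group of replication genes, left of the dashed line, and of 3 comparison lists right of it, with each library as a point, Setd2D/D in red to the left of Setd2f/f in blue. The clamp and clamp loader sums are 1087 and 1141 TPM in Setd2D/D, below 1297 and 1308 TPM in Setd2f/f, and the mitosis sums are 2128 and 2163 TPM in Setd2D/D, above 1952 and 1957 TPM in Setd2f/f.

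Single-strand binding and fragment joining were carried by few genes. All 3 RPA genes were below 0, or 2 of them after rescaling or with Setd2D/D replicate 1 or Setd2f/f replicate 2 left out, with 0 past the threshold. Rpa1, the large subunit, was at 118.0 and 115.2 TPM in Setd2D/D, against 125.2 and 141.2 TPM in Setd2f/f, with both Setd2D/D libraries lower (difference -0.19, interval -0.48 to 0.11, adjusted p = 0.576). Rpa3 was at 55.8 and 60.4 TPM in Setd2D/D, against 66.5 and 66.8 TPM in Setd2f/f, also lower in both (difference -0.20, interval -0.51 to 0.12, adjusted p = 0.582). Rpa2 overlapped at 100.5 and 104.6 TPM in Setd2D/D, against 95.5 and 111.0 TPM in Setd2f/f, and its difference of -0.01 was between 0.04 and 0.05 after each rescaling of the libraries.

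Lig1 (chromosome 7, 13277283 to 13311433), the ligase of the lagging strand, was at 154.5 and 157.5 TPM in Setd2D/D, against 172.9 and 187.9 TPM in Setd2f/f. The genotypes did not overlap, with a difference of -0.21 (SE 0.10, interval -0.47 to 0.06, adjusted p = 0.512). Fen1, the flap nuclease that acts just before it, was at 86.5 and 79.0 TPM in Setd2D/D, against 77.8 and 80.1 TPM in Setd2f/f, with overlap (difference 0.07, interval -0.24 to 0.37, adjusted p = 0.864).

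Of the 5 genes of nucleotide supply, 2 were above 0 and 3 below, or 3 and 2 after median-of-ratios and quantile scaling, with a median of -0.05, 0 past the threshold and a sum of 829 and 846 TPM in Setd2D/D, against 775 and 883 TPM in Setd2f/f. All 5 were above 0, with a median of 0.12, without Setd2f/f replicate 2, and the median was -0.205 without Setd2f/f replicate 1. Rrm1 and Rrm2 encode the subunits of ribonucleotide reductase, which makes deoxynucleotides, and both were higher without overlap. Rrm2 (chromosome 12, 24708241 to 24714146), the S phase subunit, was at 175 and 191 TPM in Setd2D/D, against 167 and 150 TPM in Setd2f/f (difference 0.21, SE 0.11, interval -0.09 to 0.50, adjusted p = 0.549). Rrm1 was at 164.5 and 165.2 TPM in Setd2D/D, against 152.0 and 155.6 TPM in Setd2f/f (difference 0.10, interval -0.15 to 0.35, adjusted p = 0.721). The Rrm1 libraries of Setd2D/D nearly coincided and lay above both of Setd2f/f.

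Dut, which removes dUTP, was at 234.6 and 248.9 TPM in Setd2D/D, against 227.4 and 282.1 TPM in Setd2f/f, where Setd2f/f enclosed Setd2D/D (difference -0.07, adjusted p = 0.885, and 0.09 without Setd2f/f replicate 2). Tyms, the thymidylate synthase, was at 142.4 and 142.9 TPM in Setd2D/D, against 133.3 and 164.6 TPM in Setd2f/f, and Tk1, the thymidine kinase, overlapped as well. Uhrf1 (chromosome 17, 56303321 to 56323486), which recruits the maintenance DNA methyltransferase to newly copied DNA, was at 171.4 and 155.7 TPM in Setd2D/D, against 169.4 and 213.6 TPM in Setd2f/f. Its high library was Setd2f/f replicate 2, and the difference was -0.22 (SE 0.15, interval -0.61 to 0.17, adjusted p = 0.615).

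The 14 genes with E2F letters in the promoter window had a median difference of -0.13, with 3 above 0 and 11 below. The 21 genes with a window and no match had a median of -0.09, with 6 above 0 and 15 below. Among the stretches printed above, Mcm2, Mcm3, Pcna and Rfc4 show no E2F letters, and Mcm5, Mcm6, Mcm7, Orc1, Gins3 and Rfc3 do. Mcm3 has its match elsewhere in the window.

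The authors' deposited table gave the 43 genes a median log2 change of -0.06, with 16 above 0 and 27 below. It rests on the same libraries and has no independent error. Its sign was the same as that of the TPM difference for 39 genes and opposite for Rfc5, Orc2, Rpa2 and Mcm4. The gap was above 0.3 for 1 gene, Rfc5, at 0.19 in the authors' deposited table and -0.23 on the TPM scale. Orc2, an origin recognition subunit, was at 49.1 and 30.4 TPM in Setd2D/D, against 48.1 and 39.7 TPM in Setd2f/f, with a difference of -0.17 and 0.12 in the authors' deposited table. On GENCODE M21 gene models, 29.8% of the exon bases of Orc2 lie under Nif3l1 on the opposite strand and 10.7% of those of Rfc5 under Wsb2. The share was at least 10% for 7 of the 43 genes and highest for Fen1 (78.8%, Gm10143) and Gins2 (67.3%, Gse1). Whether counting used strand is not given in the sources used here, so reads of such pairs cannot be told apart.

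**Figure D5:**
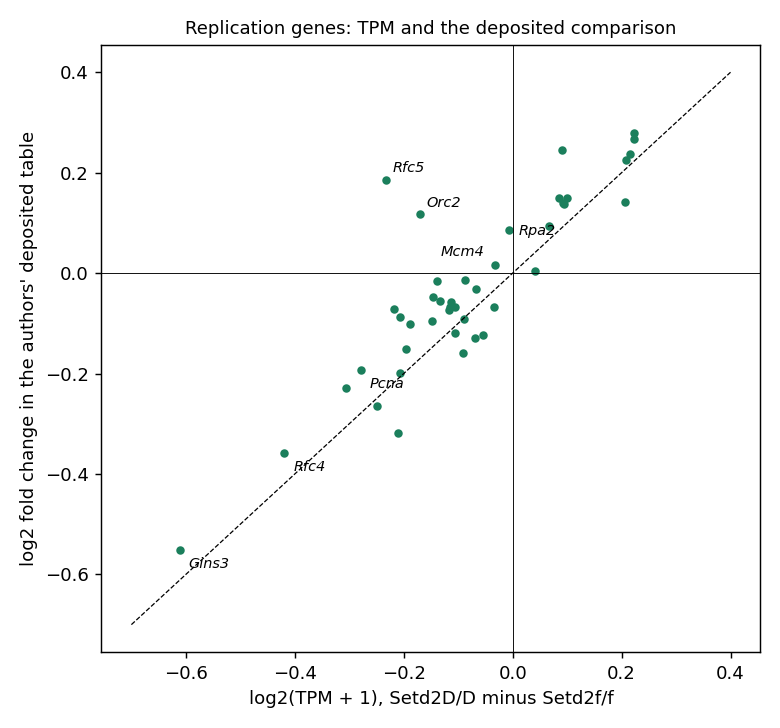
Log2 fold change in the authors' deposited table on the vertical axis against the difference in log2(TPM + 1), Setd2D/D minus Setd2f/f, on the horizontal axis for the 43 genes, with the line of equality dashed. Most genes lie near the line, Gins3 is lowest on both axes at -0.61 and -0.55, and Rfc5 lies farthest from the line at -0.23 and 0.19.

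Further genes of the pathway did not pass either. Of 45 further replication genes tested, 0 passed limma or the FDR of the authors' deposited table, 15 were above 0 and 30 below (24 or 25 below after rescaling), and the median was -0.10, with an unadjusted p under 0.05 for 2. Over all genes tested, 57.9% were below 0, the median was -0.06 and 11.2% had an unadjusted limma p under 0.05. Pold4, the smallest subunit of polymerase delta, was at 35.3 and 33.3 TPM in Setd2D/D, against 45.4 and 45.9 TPM in Setd2f/f (difference -0.40, SE 0.13, adjusted p = 0.421). Orc3, an origin recognition subunit, was at 68.5 and 68.6 TPM in Setd2D/D, against 91.6 and 80.9 TPM in Setd2f/f (difference -0.32, adjusted p = 0.446). Both Setd2D/D libraries were lower for each gene. Mcm8, an MCM relative that acts in repair, was at 8.65 and 11.3 TPM in Setd2D/D, against 16.1 and 14.3 TPM in Setd2f/f (difference -0.57, adjusted p = 0.470).

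Upstream, 21 genes of E2F control and S phase entry had a median of -0.06 with 10 above 0 and 11 below (11 and 10, with a median of 0.03, after quantile scaling, and 11 and 10 with a median of 0.01 when Setd2D/D replicate 2 was left out), and 0 passed limma or an unadjusted p under 0.05. After each rescaling 2 had an unadjusted p under 0.05, and 7 of the 21 do in the authors' deposited table, against 11.2% of its genes. E2f1, an activating E2F factor, was at 25.1 and 26.6 TPM in Setd2D/D, against 31.4 and 34.2 TPM in Setd2f/f, lower in both (difference -0.33, adjusted p = 0.488). Its partner Tfdp1 was at 269 and 245 TPM in Setd2D/D, against 194 and 226 TPM in Setd2f/f, higher in both (difference 0.29, adjusted p = 0.466). Cdc25a, the phosphatase that activates S phase kinases, was likewise higher at 59.2 and 52.9 TPM in Setd2D/D, against 45.9 and 44.7 TPM in Setd2f/f (difference 0.30, adjusted p = 0.484). E2f2, named because it is the 1 gene of this list past the FDR in the authors' deposited table (log2 change -0.73, FDR 0.000811), was at 7.65 and 19.9 TPM in Setd2D/D, against 21.4 and 15.9 TPM in Setd2f/f. The E2f2 libraries overlapped, with a limma difference of -0.54 (adjusted p = 0.697) that was 0.10 without Setd2D/D replicate 1.

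Of 20 mitosis genes, which act after replication, 14 were above 0 and 6 below (18 and 2 after rescaling), with a median of 0.10 and 0 past limma or the FDR of the authors' deposited table. An unadjusted p under 0.05 was reached by 4, all higher, against 4.17% of all genes tested in that direction. That count was 1 with no abundance trend and 4 or 5 after rescaling. With 1 library left out that count was lower in each fit, while the median of the mitosis genes lay between 0.107 and 0.165. Cdk1, the kinase that drives entry into mitosis, was at 258 and 244 TPM in Setd2D/D, against 193 and 201 TPM in Setd2f/f (difference 0.35, adjusted p = 0.381). Cenpe, a kinetochore motor, was at 35.2 and 33.9 TPM in Setd2D/D, against 23.8 and 24.9 TPM in Setd2f/f (difference 0.49, adjusted p = 0.402). Cenpa, the centromeric histone, was at 164 and 175 TPM in Setd2D/D, against 132 and 142 TPM in Setd2f/f (difference 0.30, adjusted p = 0.423). For all 3 both Setd2D/D libraries were higher. The difference between the mitosis and the replication genes was not tested.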

How the data were processed

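The 43 genes and all lists were chosen with earlier results of these data known. The authors deposited 2 tables, per the file headers: TPM values per gene for 4 libraries, and their comparison of the genotypes. The deposited comparison holds a fold ratio, a log2 fold change, an abundance in log2 CPM, an F score, and a p-value with its FDR. The submitters' processing notes name cutadapt, RSEM, edgeR and mm10, but neither their roles nor versions. Gene names containing a comma had moved the fields of 5 TPM rows and 2 comparison rows, which were rejoined, and the p-value column is therefore treated as a score in the unit check. TPM keeps no depth, so the depth per library is unknown and no counting interval is given. The number of per-sample columns left unmapped was 0.

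Genes were tested where 2 or more libraries had a TPM of 1 or above. Values were transformed to log2(TPM + 1), which understates the change of low genes, and fitted with limma 3.58.1 in R 4.3.3, using a genotype term, an abundance trend and Benjamini-Hochberg adjustment. The fit was tested on simulated data. Coordinates come from GENCODE M21 on GRCm38, where 46005 of 46517 identifiers and 43 of 43 members matched.

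By rule, up to 3 genes per role list with the smallest limma p are given in full and the rest by level and count, and from each comparison list the 3 with the smallest p. Further values, and the genes E2f2, Rfc5, Orc2 and Mcm4, were picked after the values were seen. The alternatives tried were smaller pseudocounts (0.1, 0.5), other filters (none, TPM 5), other scalings (trimmed means of M, median-of-ratios, quantile), limma without the trend or with robust moderation, a block for the replicate number, and fits that omit each library. Replicate numbers recur in both genotypes, but nothing says they pair libraries.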

Additional observations from a re-analysis of the deposited data

How the results depend on the processing

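The count of replication genes past the threshold was 0 in the main limma fit and in all 14 alternatives, with a lowest adjusted p between 0.197 and 0.949 (0.396 in the main fit). Over all genes the count was 10, against 3 with a pseudocount of 0.1, 19 with no trend, 0 with no filter (2035 genes at an unadjusted p under 0.05) and 0 with the replicate block (1508 genes). It was between 0 and 0 when any 1 library was left out (554 to 2928 genes at an unadjusted p under 0.05), where the lone library of its group is assumed to vary like the other pair. Under the replicate block the lowest adjusted p of the replication genes was 0.457, and their calls did not change. Deviations of same-numbered libraries correlated at r = 0.04 over all genes tested and 0.244 over the replication genes. The numbers were not taken as pairs, since there are only 2 and nothing in the labels pairs them. The median difference lay between -0.053 and -0.046 after rescaling and between -0.185 and 0.02 over the leave-one-out fits. Signs were followed for 38 genes only, which include Setd2 and genes of the comparison lists and leave out members such as Tyms and Tk1. Of 532 values for these 38, 14 changed sign, in 7 genes. Over all 43 members signs were less stable, since 12 were above 0 in the main fit and 22 without Setd2f/f replicate 2. After trimmed-mean, median-of-ratios and quantile scaling, Rpa2 was 0.05, 0.05 and 0.04 and Mcm4 0.02, 0.03 and 0.02. With 1 library left out, Mcm5 ranged from -0.24 to 0.03, Rpa2 from -0.11 to 0.10, Dut from -0.22 to 0.09, E2f2 from -1.17 to 0.10, Rfc5 from -0.51 to 0.05 and Orc2 from -0.51 to 0.17. The cause of these changes was not tested. With 2 libraries per genotype, outliers within a genotype could not be tested.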

Other observations

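Ratios within a library do not depend on its total, and 10 of them between partner genes were looked at after the levels were seen. Prim1 over Prim2, the subunits of primase, was 1.76 and 1.6 in Setd2D/D, against 2.49 and 2.2 in Setd2f/f, with no overlap. Pola1 over Pola2, the subunits of polymerase alpha, was 0.682 and 0.674 in Setd2D/D, against 0.608 and 0.563 in Setd2f/f, also with no overlap. Cdt1 over Gmnn, the loading factor and its inhibitor, was 0.591 and 0.685 in Setd2D/D, against 0.711 and 0.71 in Setd2f/f. Rfc2 over Rfc4 was 7.15 and 8.24 in Setd2D/D, against 6.14 and 6.44 in Setd2f/f. Pcna over Rfc1 was 9.21 and 8.13 in Setd2D/D, against 10.4 and 9.35 in Setd2f/f. The ratios of Cdt1 over Gmnn, Rfc2 over Rfc4 and Pcna over Rfc1 did not overlap between genotypes either. How often ratios of other gene pairs separate by genotype was not looked at. The other ratios, Rpa3 over Rpa1, Pole2 over Pole, Rrm2 over Rrm1, Rrm2b over Rrm2 and Pold2 over Pold1, overlapped between genotypes. None of these can reach a p under 0.33 in an exact permutation test of 2 libraries against 2.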
